A study of Homo sapiens with 4 samples.

Results

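The genes described here are the nuclear genes of the mitochondrial respiratory chain, measured in an oesophageal cancer cell line with and without overexpression of the transcription factor ETS1. They were chosen by name alone: every gene name beginning with NDUF, with SDHA to SDHD, with UQCR, with COX4 to COX8 or with ATP5, without names that hold a hyphen and names that end in P and digits, which are mostly pseudogenes. Of the 226 names with these prefixes, 4 had a hyphen and 126 ended in P and digits, which left 96 of the 55764 names in the table. By prefix, 46 belonged to complex I, 6 to complex II, 8 to complex III, 17 to complex IV and 19 to complex V. The prefix is not always the function, so NDUFA4 was counted with complex I although its protein is a subunit of complex IV, and ATP5S and ATP5SL were counted with complex V although neither is one of its subunits.

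TE5 is a human oesophageal squamous cell carcinoma line. In 2 libraries, called ETS1 1 and 2 here, the cells stably carried a lentiviral vector with ETS1 behind the CMV promoter (genotype label ETS1 Overexpression), and the 2 control libraries came from cells with the empty backbone instead (genotype label WT). The cells of all 4 libraries had thus been infected with virus made in HEK293T cells, a human embryonic kidney line, and had passed selection. Whether infected cells were kept as a pool or as a clone, and whether libraries of a group came from separate infections or cultures, is not given in the sources used here, so p-values measure only the spread between these samples.

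The inner mitochondrial membrane holds the respiratory chain: complexes I and II pass electrons from NADH and succinate to ubiquinone, complex III passes them on to cytochrome c, and complex IV to oxygen. Complexes I, III and IV pump protons, and complex V, the ATP synthase, uses the gradient to make ATP. Most subunits are encoded in the nucleus, made in the cytosol and imported, while a few core subunits of complexes I, III, IV and V are encoded by mitochondrial DNA, and complex II is wholly nuclear. Nuclear respiratory factor 1 (NRF1) and GABP, whose DNA-binding subunit GABPA belongs to the same ETS family as ETS1, are textbook regulators of these nuclear genes.

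Levels are FPKM, fragments scaled to gene length in kilobases and to the library's total. The library totals recovered from the FPKM steps were 40505238 and 44281805 reads in the controls and 57505840 and 56737036 in the ETS1 libraries. ETS1 itself was at 0.491 and 0.509 FPKM in the control libraries and at 1.84 and 1.87 FPKM in the ETS1 libraries, a ratio of 3.71. The label squamous cell carcinoma was checked against 6 squamous markers, of which 5 (KRT5, KRT14, KRT6A, TP63 and DSG3) were under 0.1 FPKM in every library and only SOX2 was above. Of 5 general epithelial markers, KRT19 was under 0.1 FPKM and the summed level of the list was 16.1 to 16.3 FPKM in the controls and 16.8 to 16.9 in the ETS1 libraries. Within that sum KRT8 rose from 3.91 and 3.87 to 6.48 and 6.59 FPKM and KRT18 fell from 10.2 and 10.5 to 8.35 and 8.29 FPKM by the test described below, while CDH1 was at 0.571 and 0.567 against 1.08 and 0.916 and EPCAM at 1.37 and 1.36 against 0.915 and 1.12. Leukocyte markers summed to 1.12 to 1.35 and 1.88 to 1.97 FPKM, fibroblast markers to 2.13 to 2.28 and 3.09 to 3.19, and endothelial markers to at most 0.0506. Under 0.1 FPKM in every library were 2 of 4 leukocyte markers (PTPRC among them), 3 of 6 fibroblast markers (COL1A2 and DCN among them) and 2 of 2 endothelial markers, and the part of the markers in the results was not tested. These are bulk libraries of a culture, in which fewer cells of a kind and less RNA per cell cannot be told apart.

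Because ETS factors bind a shared core sequence, promoter windows of 5 respiratory chain genes are shown, chosen for contrast in their values and motif matches: COX5A, with the largest fall of the 86 genes tested; COX5B, its partner in complex IV; ATP5J, which lies head to head with GABPA; SDHAF2, which was not called; and NDUFA10, with the largest rise. Each is a RefSeq promoter window of GRCh38.p14, 300 bases that run past an annotated start site, written 5′ to 3′ on the gene's strand. Capitals mark the ETS-type motif CCGGAAG on either strand, so that it reads CTTCCGG when it lies on the other strand. Windows lie at chr15:74938024-74938323 on the minus strand for COX5A, chr2:97645812-97646111 on the plus strand for COX5B, chr21:25734855-25735154 on the minus strand for ATP5J (the second of its 2 windows), chr11:61429874-61430173 on the plus strand for SDHAF2 and chr2:240025293-240025592 on the minus strand for NDUFA10.
COX5A: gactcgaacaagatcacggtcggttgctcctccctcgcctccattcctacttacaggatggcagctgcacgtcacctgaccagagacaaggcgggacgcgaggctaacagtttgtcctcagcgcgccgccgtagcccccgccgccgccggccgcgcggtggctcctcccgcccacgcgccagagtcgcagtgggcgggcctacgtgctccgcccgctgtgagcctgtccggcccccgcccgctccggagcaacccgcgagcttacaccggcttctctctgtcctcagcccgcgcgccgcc
COX5B: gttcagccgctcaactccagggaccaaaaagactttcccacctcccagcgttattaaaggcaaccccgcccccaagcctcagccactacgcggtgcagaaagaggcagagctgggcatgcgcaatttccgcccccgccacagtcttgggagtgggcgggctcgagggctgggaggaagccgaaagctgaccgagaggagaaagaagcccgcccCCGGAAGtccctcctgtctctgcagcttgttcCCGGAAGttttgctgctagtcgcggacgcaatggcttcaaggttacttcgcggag
ATP5J: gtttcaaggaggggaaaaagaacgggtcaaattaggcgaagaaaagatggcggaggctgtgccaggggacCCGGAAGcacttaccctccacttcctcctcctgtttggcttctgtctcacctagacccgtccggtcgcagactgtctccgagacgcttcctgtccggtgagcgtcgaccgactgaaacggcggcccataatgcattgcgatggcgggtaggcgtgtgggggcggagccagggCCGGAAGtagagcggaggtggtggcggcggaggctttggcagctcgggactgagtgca
SDHAF2: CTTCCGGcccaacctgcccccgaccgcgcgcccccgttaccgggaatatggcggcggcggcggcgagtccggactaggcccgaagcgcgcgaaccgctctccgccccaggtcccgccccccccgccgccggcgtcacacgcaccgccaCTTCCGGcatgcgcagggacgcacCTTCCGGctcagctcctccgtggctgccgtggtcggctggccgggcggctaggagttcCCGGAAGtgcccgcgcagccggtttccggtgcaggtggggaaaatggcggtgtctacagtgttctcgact
NDUFA10: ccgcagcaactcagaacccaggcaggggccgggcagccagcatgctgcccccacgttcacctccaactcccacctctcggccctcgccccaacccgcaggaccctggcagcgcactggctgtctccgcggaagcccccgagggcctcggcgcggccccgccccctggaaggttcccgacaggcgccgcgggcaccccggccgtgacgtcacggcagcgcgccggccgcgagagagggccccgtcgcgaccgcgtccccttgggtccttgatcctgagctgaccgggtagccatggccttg
The windows of COX5A and NDUFA10 held no match, those of COX5B and ATP5J held 2 each, and that of SDHAF2 held 4. The 5 were picked with their values and matches known, so the matches in them support nothing about the motif.

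A gene was tested where its mean FPKM over the 4 libraries was at least 1, which 86 of the 96 names and 14306 of all names reached. Values were compared as log2(FPKM + 1) with limma, two-sided, with Benjamini-Hochberg adjustment over all 14306 genes, and a gene was called, and is said to have risen or fallen, where its adjusted p was under 0.05. A log2 difference is always ETS1 minus control on that scale, which understates the change of low genes. With 2 libraries against 2, an exact permutation test of a single gene cannot go below p = 0.333 and was not used.

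The nuclear respiratory chain genes were lower in the ETS1 libraries, broadly and by a modest amount. Of the 86 tested, 60 fell, while 28.4% of all tested genes fell. Among the 60, NDUFA13 passed the filter only through the controls, with means of 1.38 FPKM there and 0.941 FPKM in the ETS1 libraries. Only NDUFA10 and NDUFAF7 rose, where 30.7% of all tested genes rose, and 24 were not called. The median log2 difference was -0.23, a fall of 15.1% in FPKM at the median, with a range from -0.72 to 0.47, beside a median of 0.016 over all tested genes. In 72 of the 86, both ETS1 libraries lay below both controls (38.9% of all tested genes did so), and in 5 both lay above (43.1% of all tested genes). The summed FPKM of the 96 names was 6465 and 6354 in the controls and 5316 and 5198 in the ETS1 libraries, a ratio of 0.82, or 1.76% and 1.72% of all FPKM against 1.45% and 1.43%. The authors' deposited table lists 87 of the names and 61 of them are lower at an adjusted p under 0.05, against 25.9% of all genes there with an adjusted p. Of the 60 genes that fell here, 59 are lower in the authors' deposited table as well, which was made from the same libraries. Of the 18 alternatives run, quantile normalization moved the median furthest: 44 of the 86 genes fell, 5 rose and the median was -0.11. Among the genes named below, NDUFV1, NDUFA4, UQCRH, COX7B, COX6B1 and ATP5B lost their calls there. Others kept their calls with smaller differences: NDUFS5 at -0.12, NDUFS3 at -0.19, SDHB at -0.14, UQCR10 at -0.16, COX5B at -0.071, COX4I1 at -0.089, COX6A1 at -0.27, COX7A2 at -0.20, COX7C at -0.25, ATP5G2 at -0.17 and ATP5J at -0.29.

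**Figure D1:**
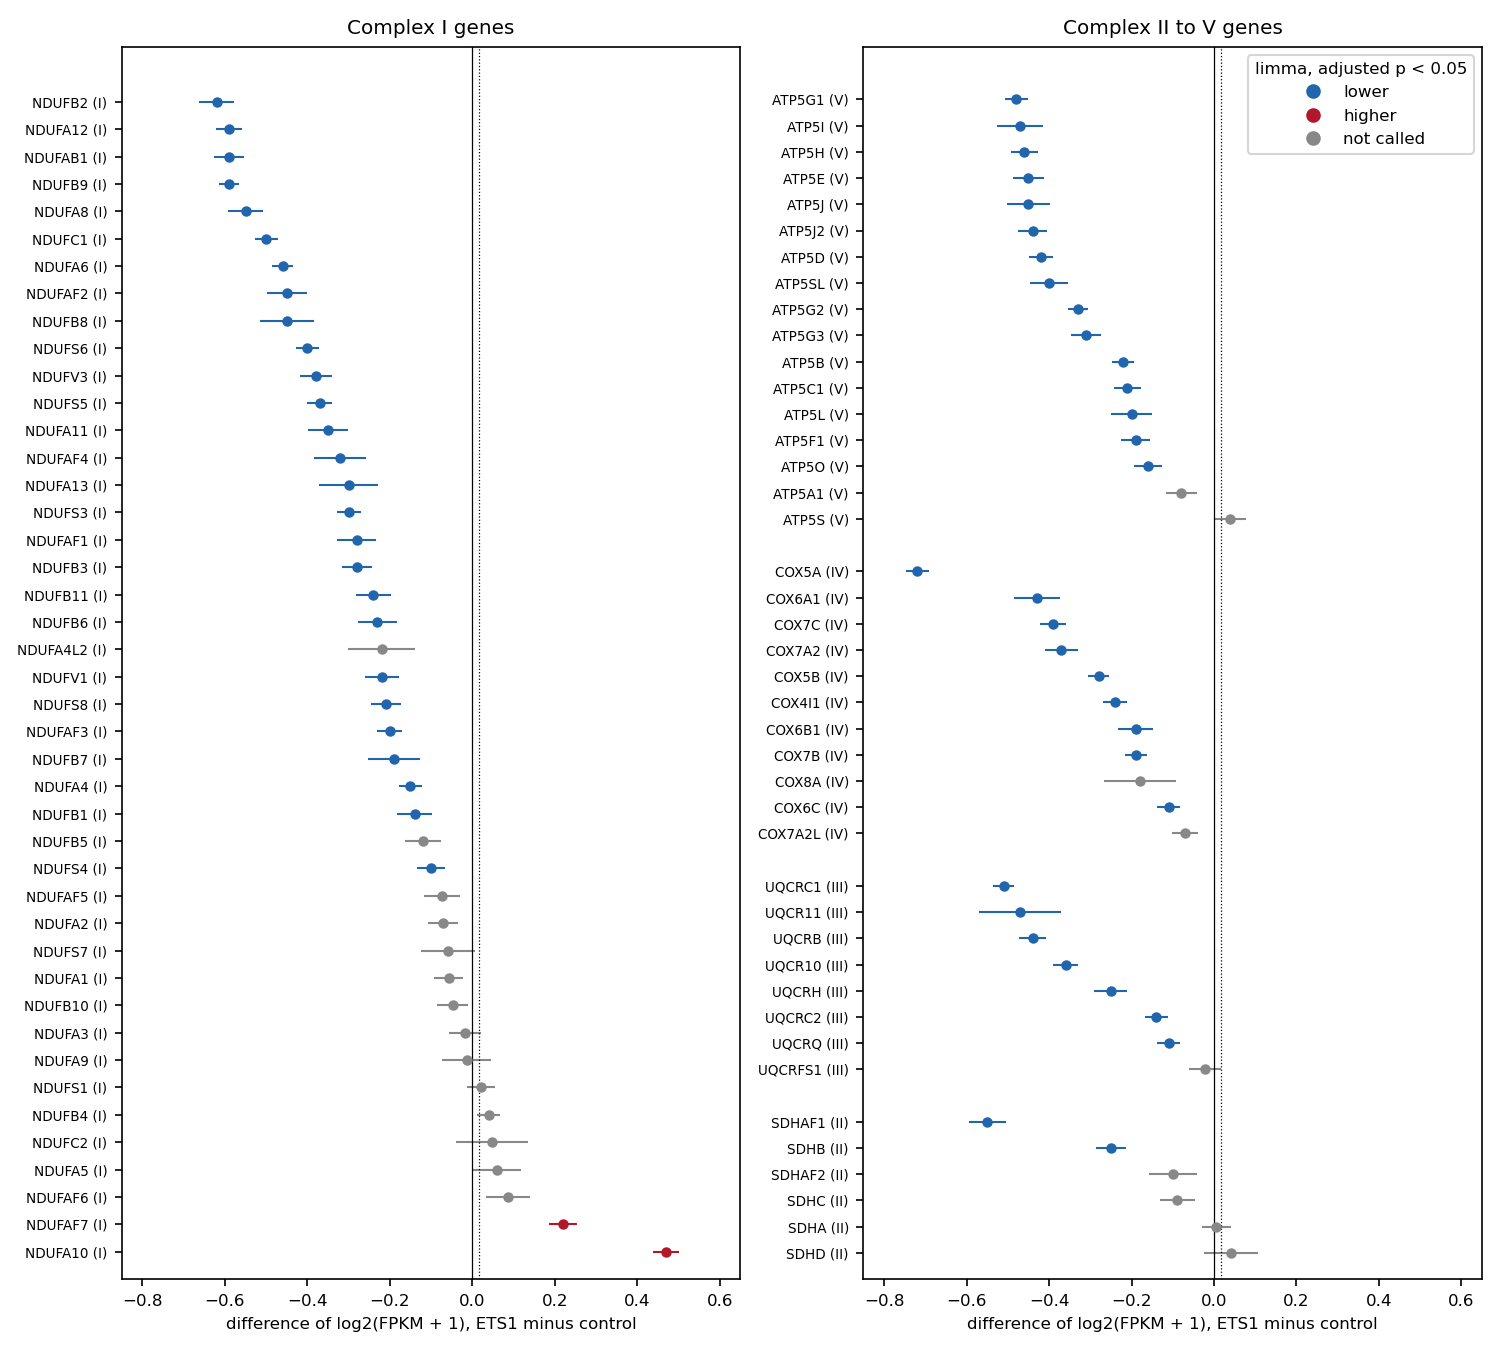
Difference of log2(FPKM + 1), ETS1 minus control, for tested genes (points) with its limma standard error (bars), complex I on the left and complexes II to V on the right, sorted within each complex. The dotted line is the median of all tested genes, 0.016. The 60 blue points lie left of zero and red points are NDUFA10 and NDUFAF7.

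Complex I, the NADH dehydrogenase, had 44 of its 46 names tested, of which 27 fell and 2 rose, with a median log2 difference of -0.21. Its summed FPKM was 0.834 times that of the controls. The largest falls were in accessory subunits, which surround the catalytic core. NDUFB2, a membrane-arm subunit, was at 22.3 and 21.3 FPKM in the controls and 14.2 and 13.4 in the ETS1 libraries, a log2 difference of -0.62 (SE 0.042, adjusted p 0.00071). In the annotation 35.9% of its exon bases lie under exons of other genes, mostly on the other strand. NDUFA12, in the matrix arm, was at 62.8 and 60.3 against 40.3 and 40.6 FPKM (-0.59, SE 0.031, adjusted p 0.000516). In each of these genes the groups were set apart by far more than the libraries of a group. NDUFAB1, the mitochondrial acyl carrier protein that sits in both arms, was at 77.3 and 79.5 against 53.1 and 50.2 FPKM (-0.59). NDUFB9 of the membrane arm was at 62.5 and 61.8 against 41 and 40.9 FPKM, also -0.59, and NDUFA8 was at 97.9 and 104 against 70.3 and 66.6 FPKM (-0.55). With trends on length, GC content and chromosome removed, an alternative chosen after seeing the data, the differences of NDUFB9 and NDUFA8, which lie on chromosomes 8 and 9, were -0.35 and -0.31, and both fell. NDUFS5, a small membrane-arm subunit, had the highest level of all 96 genes, at 414 and 416 FPKM in the controls and 325 and 315 in the ETS1 libraries (-0.37, SE 0.030, adjusted p 0.000976). Over the 20 accessory subunits of the membrane arm, 13 fell (65%) and 1 rose (median -0.23). Over the 8 tested of 9 in the matrix arm, 5 fell (62.5%) and none rose (median -0.24). Of all tested genes 28.4% fell.

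The core subunits of complex I carry the flavin and the iron-sulphur clusters. Of 7 nuclear core subunits 6 were tested, 3 fell (50%, beside 28.4% of all tested genes) and the median was -0.14. NDUFS3 fell from 36.1 and 36.9 to 29.8 and 29.2 FPKM (-0.30, adjusted p 0.0015). NDUFV1, which binds NADH, fell from 53.8 and 57.3 to 48.2 and 46.5 FPKM (-0.22), and NDUFS8 from 28.9 and 30.1 to 25.8 and 24.9 FPKM (-0.21). NDUFS1, the largest of them, was not called, at 8.25 and 8.01 against 8.28 and 8.25 FPKM (0.022, adjusted p 0.605). NDUFS7 was not called either, at 5.1 and 4.78 against 5.01 and 4.41 FPKM (-0.059), with overlap. The direction of NDUFS1 depended on the processing: with a smooth trend of the difference on gene length removed its difference was -0.13 and passed the test. NDUFV2 was at 0.316 to 0.477 FPKM in the 4 libraries and stayed under the filter, as did NDUFA7 at 0.463 to 0.885 FPKM. In the annotation 28.4% of the exon bases of NDUFV2 and 33.5% of those of NDUFA7 lie under exons of other genes. For NDUFS7 the share was 49.1% and for NDUFS3 22.4%. How the authors counted such reads is not given in the sources used here.

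NDUFA10 and NDUFAF7 went the other way. NDUFA10, an accessory subunit of the membrane arm with a fold like that of nucleoside kinases, spans chr2:239892450-240025402 on the minus strand (GRCh38, GENCODE 29). It was at 7.46 and 7.37 FPKM in the controls and at 10.7 and 10.6 in the ETS1 libraries, a rise of 43.3% (log2 difference 0.47, SE 0.032, adjusted p 0.000723). It rose under each of the 18 alternatives run, with log2 differences from 0.34 to 0.52, and no other nuclear structural subunit among the 86 tested genes rose in the main comparison. NDUFAF7, an assembly factor and methyltransferase, was at 9.21 and 8.95 against 10.7 and 10.8 FPKM, a rise of 18.2% (0.22, adjusted p 0.00459). With the median of its chromosome removed its difference was 0.13 (adjusted p 0.0176). Of the 7 complex I assembly factors in the list, 4 fell (57.1%, beside 28.4% of all tested genes) and NDUFAF7 alone rose, with a median of -0.20. The gene with the smallest difference in complex I was NDUFA9, at 3.18 and 2.96 against 2.88 and 3.18 FPKM. NDUFA4, the complex IV subunit with a complex I name, fell from 37.2 and 36.4 to 33.1 and 33.1 FPKM (-0.15, adjusted p 0.00887), a call lost without ETS1 library 1 (0.0565) or 2 (0.0603). Its paralogue NDUFA4L2 was at 3.23 and 2.65 against 2.35 and 2.42 FPKM and was not called (-0.22, adjusted p 0.0725). Without control library 1 its difference was -0.11 (adjusted p 0.192) and without control library 2 it was -0.32 (0.0147). It was called under quantile normalization (adjusted p 0.0444), voom (0.0343) and removal of the chromosome median (0.022).

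Complex II, succinate dehydrogenase, was the smallest group and its count was near the background. Of its 6 genes 2 fell, or 33.3% beside 28.4% of all tested genes, and the median was -0.096. SDHA, the flavoprotein that oxidizes succinate, was at 16.6 and 17.2 FPKM in the controls and at 17.2 and 16.7 in the ETS1 libraries, with full overlap (0.0061, SE 0.034, adjusted p 0.888). SDHB, the iron-sulphur subunit, fell from 48.3 and 50.4 to 42.2 and 40.5 FPKM (-0.25, SE 0.036, adjusted p 0.00418). The membrane anchors were not called: SDHC was at 38.7 and 37.8 against 37.2 and 34.6 FPKM (-0.089, called only with the chromosome median removed, at -0.14 and an adjusted p of 0.0287), and SDHD at 24.4 and 21.7 against 22.9 and 24.5 FPKM. SDHAF1, an assembly factor that serves the iron-sulphur clusters of SDHB, had the largest fall of the complex, from 20.8 and 22.2 to 14.7 and 14 FPKM (-0.55, SE 0.045, adjusted p 0.00102). SDHAF2, which helps to attach the flavin to SDHA, was at 2.85 and 2.85 against 2.44 and 2.74 FPKM and was not called (-0.10, adjusted p 0.184). Exons of another gene cover 30.5% of the exon bases of SDHAF2 on the same strand. The table also holds 3 pseudogene names that begin with SDHA, with a summed mean of 18.2 FPKM, so reads may be divided between the copies and the SDHA level is uncertain.

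Complex III, the cytochrome bc1 complex, had all 8 names tested and 7 fell, with a median of -0.30. UQCRC1, a large subunit facing the matrix, was at 68.7 and 68.2 FPKM in the controls and at 47.2 and 48 in the ETS1 libraries (-0.51, SE 0.026, adjusted p 0.000486). UQCR10, a small subunit and one of the most abundant transcripts of the complex, was at 205 and 200 against 159 and 155 FPKM (-0.36, adjusted p 0.00102). Neither gene had overlapping groups, and in both the libraries of a group lay within a few percent of each other. UQCRB fell by 0.44 on the log2 scale, from 35.4 and 36.9 to 26.6 and 26.1 FPKM, and is uncertain because 3 pseudogene names with its prefix summed to a mean of 14.8 FPKM. UQCRH, the hinge protein, fell by 0.25, from 263 and 261 to 228 and 214 FPKM, and by 0.15 with the length trend removed. UQCR11 was at 8.32 and 6.57 against 4.97 and 5.16 FPKM (-0.47, SE 0.10, adjusted p 0.0154), the widest error among the 60 genes that fell, and it was not called without library ETS1 1 (adjusted p 0.0536) or without the filter on low values (0.0824). The exception was UQCRFS1, the Rieske iron-sulphur protein, at 49.4 and 49.6 against 50.3 and 47.2 FPKM (-0.022, adjusted p 0.645).

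Cytochrome c1 (CYC1), another nuclear subunit of complex III, has a name outside the rule and fell from 112 and 115 to 74.4 and 72.5 FPKM (-0.62, adjusted p 0.000482). UQCRB and CYC1 lie on chromosome 8, where tested genes had a median of -0.17, and with the chromosome median removed the difference of UQCRB was -0.27.

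In complex IV, cytochrome c oxidase, 11 of the 17 names were tested and 9 fell, with a median of -0.24 and a summed FPKM ratio of 0.795, the lowest of the complexes. COX5A, a subunit on the matrix side, spans chr15:74919791-74938168 on the minus strand. It was at 306 and 300 FPKM in the controls and at 186 and 182 in the ETS1 libraries, a fall of 39.4% from 303 ± 4.29 to 184 ± 3.00 (SD, n = 2 each). Its log2 difference of -0.72 (SE 0.028, adjusted p 0.000439) was the largest of all 86 in the main comparison. COX5A lies on chromosome 15, where 58.7% of tested genes fell and the median was -0.23, so it fell by more than its chromosome's median. With the trends on length and GC content and the chromosome median removed, its difference was -0.34 (adjusted p 0.000623). It was then no longer the largest, since ATP5E was at -0.64. With the chromosome median alone removed COX5A was at -0.49 and NDUFA12 at -0.67. COX5B, its neighbour in the enzyme, changed by less, from 178 and 176 to 146 and 144 FPKM (-0.28, SE 0.026, adjusted p 0.00131), or -0.17 with length and GC trends removed.

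The isoform pairs of complex IV differed in level. All 6 tissue-restricted isoforms stayed under the filter: COX4I2 and COX7B2 were listed at 0 in every library, COX6A2 and COX7A1 did not exceed 0.0902 FPKM, and COX6B2 and COX8C lay between 0.246 and 0.589 FPKM. Their broadly expressed partners were abundant and mostly fell. COX6A1 fell from 129 and 117 to 88.8 and 93.6 FPKM (-0.43), COX7A2 from 116 and 110 to 89.7 and 85.2 (-0.37) and COX4I1 from 97.6 and 94.2 to 81.8 and 80.4 (-0.24). COX7B fell by 0.19, from 70.3 and 69.1 to 61.5 and 60.6 FPKM. COX6B1 also fell by 0.19, from 253 and 245 to 225 and 210 FPKM, but it lost its call without control library 1 (adjusted p 0.0504), without ETS1 library 2 (0.062) and without the filter (0.0728). It also lost its call with the length trend removed (-0.084, adjusted p 0.153), with length and GC trends removed (-0.064, 0.232) and with length, GC and chromosome removed (-0.054, 0.303). COX8A was at 347 and 294 against 272 and 292 FPKM and was not called (-0.18, SE 0.087, adjusted p 0.129). Control library 1 and ETS1 library 1 lay at its extremes, and the difference depended on the control library: without control library 1 it was -0.064 (adjusted p 0.364) and without control library 2 it was -0.30 (0.0134). With voom on recovered reads COX8A was called at -0.18 (adjusted p 0.0289). Exons of another gene cover 34.5% of the exon bases of COX8A on the same strand. COX7C, which has no isoform partner here, fell from 269 and 260 to 205 and 200 FPKM (-0.39). COX7A2L, known as a factor in the assembly of supercomplexes, was at 30.2 and 29.5 against 28.8 and 28 FPKM and was not called (-0.07, adjusted p 0.108). It was called with the length trend removed (-0.13, adjusted p 0.0212), with the chromosome median removed (-0.16, 0.0082) and with both trend-removal alternatives chosen after seeing the data (-0.15, 0.00972 and -0.17, 0.00696). For COX6A1 the values are uncertain, since 2 pseudogene names with its prefix summed to a mean of 235 FPKM, above the gene itself, and reads may be divided between copies.

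**Figure D2:**
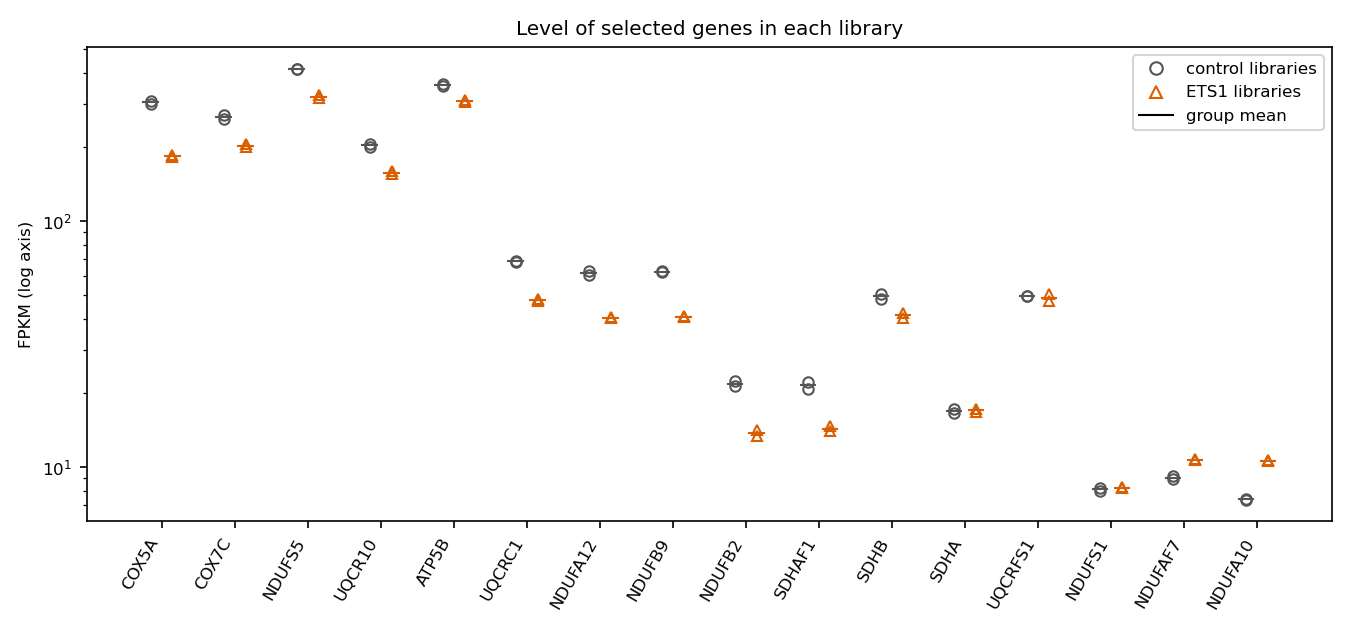
FPKM on a log axis of 16 genes in each of the 4 libraries, circles for the control and triangles for the ETS1 libraries, with a bar at each group mean. COX5A separates from 303 to 184 FPKM, SDHA and UQCRFS1 overlap, and NDUFAF7 and NDUFA10 on the right lie higher in the ETS1 libraries.

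Complex V, the ATP synthase, had 17 of 19 names tested, of which 15 fell and none rose, with the lowest median of the complexes, -0.33. In the F1 part, where ATP is made, 4 of 5 genes fell. ATP5B, the catalytic beta subunit, was at 359 and 355 FPKM in the controls and at 310 and 304 in the ETS1 libraries (-0.22, SE 0.027, adjusted p 0.00297), except under quantile normalization, where its difference was 0.014. With length and GC trends removed it was -0.14. ATP5E, the epsilon subunit of the central stalk, was at 59.2 and 58.1 against 43.9 and 41.5 FPKM (-0.45). In both genes the groups stood clear of each other.

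The 3 genes of the c-ring, the rotor in the membrane, encode the same mature protein from different precursors. All 3 fell: ATP5G1 from 46.6 and 45.5 to 32.7 and 32.6 FPKM (-0.48, SE 0.028, adjusted p 0.00058), ATP5G2 from 141 and 141 to 112 and 111 (-0.33) and ATP5G3 from 34.8 and 33.1 to 27.6 and 26.7 (-0.31, or -0.47 with length, GC and chromosome removed). ATP5G2 supplied most of the c-subunit FPKM in every library, and 3 pseudogene names with its prefix summed to a mean of 29.2 FPKM. The peripheral stalk, which holds F1 still, had 4 of 4 genes lower, among them ATP5H at 60.5 and 57.6 against 42.9 and 42.5 FPKM (-0.46). The membrane accessory subunits had 3 of 3 lower, with ATP5I at 37.6 and 35.9 against 24.9 and 27.5 FPKM (-0.47, SE 0.056, adjusted p 0.00246). For ATP5I, 61.6% of exon bases lie under exons of MYL5 on the other strand, and without a stated use of strand reads of the overlap cannot be told apart. ATP5S, which is named coupling factor B, was at 5.31 and 5.37 against 5.41 and 5.62 FPKM and was not called (0.039, adjusted p 0.414). ATP5L2 and ATP5J2LP, the names under the filter, were listed at 0 in 3 of the 4 libraries each.

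ATP5J, coupling factor 6 of the peripheral stalk, starts head to head with GABPA on chromosome 21. ATP5J spans chr21:25716503-25735673 on the minus strand and GABPA chr21:25734570-25772460 on the plus strand, so that their 5′ ends overlap. ATP5J fell from 97.8 and 89.4 to 69.8 and 66.3 FPKM (-0.45, SE 0.053, adjusted p 0.00241), while GABPA was at 8 and 6.9 FPKM in the controls and at 10.8 and 12.9 in the ETS1 libraries (0.60, SE 0.10, adjusted p 0.00671). The ATP5J window shown above, with the ETS motif at 2 places, lies within this overlap. Exons of GABPA and JAM2 cover 23.1% of the exon bases of ATP5J on the other strand.

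The subunits encoded by mitochondrial DNA moved opposite to the nuclear ones. All 13 rose, with a median log2 difference of 0.94 and a range from 0.32 to 1.37, where 30.7% of all tested genes rose. MT-ND1 of complex I was at 1185 and 1214 FPKM in the controls and at 3180 and 3024 in the ETS1 libraries (1.37, SE 0.040, adjusted p 0.000369). MT-CO1, the catalytic subunit of complex IV, was at 2830 and 2921 against 6427 and 6596 FPKM (1.18), and MT-ATP8 of complex V at 1006 and 1058 against 2221 and 2512 FPKM (1.19). No group overlapped in any of the 13. Within complex I the median was 0.96 for 7 mitochondrial and -0.21 for 44 nuclear genes, in complex IV 0.94 for 3 and -0.24 for 11, in complex V 0.98 for 2 and -0.33 for 17, and in complex III MT-CYB rose by 0.77 beside -0.30 for 8. MT-ATP8 overlaps MT-ATP6 and MT-ND4L overlaps MT-ND4, and how reads in these overlaps were counted is not given in the sources used here. Transcripts of mitochondrial DNA made up 3.02% and 3.05% of reads in the controls and 5.55% and 5.69% in the ETS1 libraries, and these reads are part of the totals that scale FPKM. With FPKM rescaled to totals without them, an alternative chosen after seeing the data, 55 nuclear genes fell and their median was -0.19, beside 0.0487 over all tested genes.

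**Figure D3:**
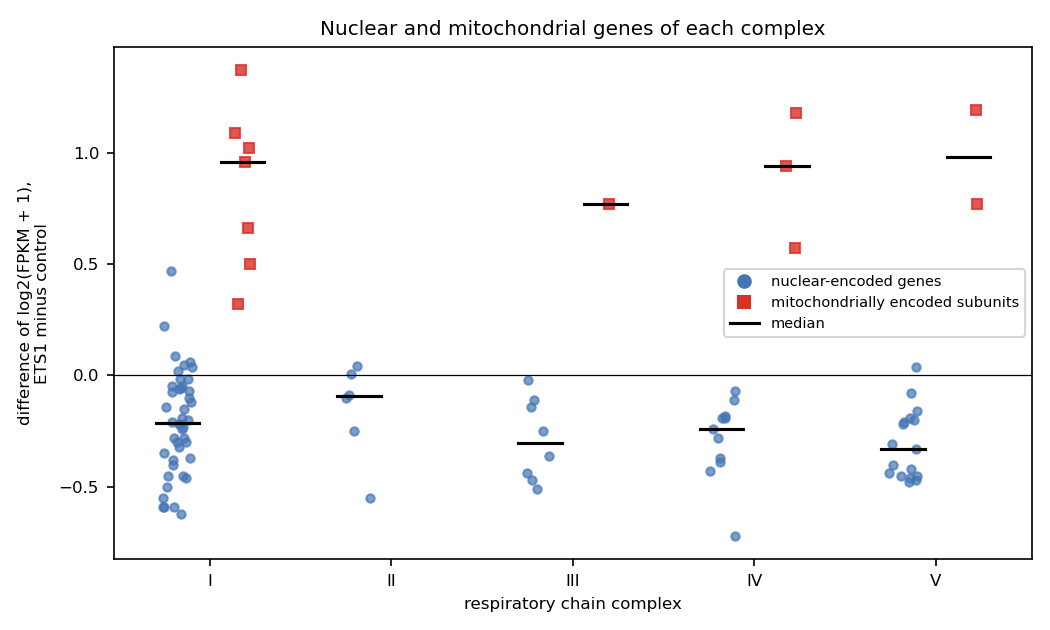
Difference of log2(FPKM + 1), ETS1 minus control, of nuclear-encoded (circles) and mitochondrially encoded (squares) genes of each complex, with the median as a bar. All 13 squares lie above zero and 76 of the 86 circles below it, and complex II has no mitochondrial gene.

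Other genes of the pathway were taken from lists put together with earlier results of these data known. Of 16 carriers and ubiquinone enzymes with cytochrome c1, 9 fell (56.2%) and 2 rose (median -0.19), where 28.4% of all tested genes fell and 30.7% rose. COQ4, which ubiquinone synthesis requires, fell by 0.70 on the log2 scale, from 21.9 and 21.4 to 12.8 and 13 FPKM, CYC1 by 0.62, and PDSS1, which makes the ubiquinone side chain, by 0.49. Cytochrome c (CYCS) was at 47.4 and 42.9 against 45.2 and 51.1 FPKM, with overlap and no call. A list of 44 assembly factors and associated genes with other names also holds the ATP synthase subunits USMG5 and C14orf2 and the ATP synthase inhibitor ATPIF1, all of which fell (-0.42, -0.26 and -0.24). Among its 43 tested genes 19 fell (44.2%) and 8 rose (median -0.10), where 28.4% and 30.7% of all tested genes did. The largest falls were in COX14, which helps to assemble complex IV (-0.64), and SLIRP, which binds mitochondrial mRNA (-0.57). PET117 rose, by 0.49, but from a low level of 1.02 and 0.753 to 1.34 and 1.97 FPKM. With a control mean of 0.886 FPKM, it passed the filter only through the ETS1 libraries, so its call rests on the group where it is high.

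Of the 15 tested transcriptional regulators of this system 5 fell (33.3%) and 4 rose, with a median of -0.049, near the 28.4% lower and 30.7% higher of all tested genes. GABPA rose, as given above, SP1 rose by 0.28, from 16.5 and 16.2 to 19.8 and 20.6 FPKM, and ESRRA, an orphan nuclear receptor of oxidative metabolism, fell by 0.33, from 10.4 and 11.2 to 8.1 and 8.66 FPKM. NRF1 was not called at 4.71 and 4.75 against 4.8 and 5.42 FPKM. TFAM, which packages mitochondrial DNA and starts its transcription, was not called either, at 19.3 and 18 against 20.1 and 20.2 FPKM (adjusted p 0.0774). PPARGC1A, a coactivator of this programme, was at 0.539 and 0.513 against 0.209 and 0.195 FPKM and was not tested.

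A RefSeq promoter window was found for 76 of the 96 names, counting a gene as positive if any of its windows held the motif on either strand. CCGGAAG occurred in 22 of these, or 28.9%, beside 23.1% of the tested genes with a window and 12.2% of all symbols with a window. Only 9349 of the 14306 tested genes had a window. The 76 include names that were not tested, so they are not a like set to the tested genes. Among the genes of the respiratory chain that fell it occurred in 16 of 51, or 31.4%, and among those not called in 6 of 17, or 35.3%. By complex the share was 15.8% in complex I, 60% in complex II, 42.9% in complex III, 35.7% in complex IV and 41.7% in complex V, of 38, 5, 7, 14 and 12 names with a window. Over all tested genes with a window the share was 25.4% of those that fell, 22.1% of those that rose and 22.2% of those not called. The NRF1 motif GCGCATGCGC, which can share no more than an end base with the ETS motif, occurred in 5 of the 76, or 6.58%, beside 2.74% of tested genes with a window. It occurred in 2 of the 51 that fell (3.92%, beside 3.06% of all tested genes that fell). Among those not called it occurred in 3 of 17 (17.6%, beside 2.64%). These shares are counts of letters in windows of one length and say nothing of binding.

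Level and length moved with the size of the difference. The tested genes had a median mean FPKM of 43.1, against 6.33 for all tested genes, and across the 86 genes the correlation of the log2 difference with log2 mean FPKM was -0.29, given as a description since genes share the libraries. At 50 FPKM or more 31 of 35 genes fell with a median of -0.28, where 569 of all 939 genes at that level fell (60.6%) with a median of -0.17. Between 10 and 50 FPKM 25 of 35 fell (median -0.23), against 39.1% of all genes there (median -0.037). Between 1 and 10 FPKM only 4 of 16 fell (median -0.036), close to the 20.1% of all genes there, and NDUFA10 and NDUFAF7 were both in this range.

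Gene length, recovered from the FPKM steps, was at hand for 83 of the 86 genes, with a median of 2486 bases against 4033 for all genes. The median difference was -0.19 for the 7 genes under 1000 bases, -0.33 for 24 of 1000 to under 2000 bases, -0.20 for 30 of 2000 to under 4000 bases and -0.13 for 22 of 4000 bases or more. All tested genes of those lengths had medians of -0.12, -0.13, -0.037 and 0.087. In every length class the respiratory chain genes lay lower than the class as a whole, and with the length trend removed 57 fell and the median was -0.18. Position moved with the difference as well: the 8 genes on chromosomes 8, 9 and 15, where all tested genes had medians from -0.23 to -0.11, had a median of -0.36, and 7 of them fell. Of all tested genes 49.7% fell on chromosome 8, 46.3% on chromosome 9 and 58.7% on chromosome 15. On the other chromosomes 53 of 78 fell with a median of -0.22, against 25.1% of all positioned genes there with a median of 0.044. What sets these trends was not tested.

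**Figure D4:**
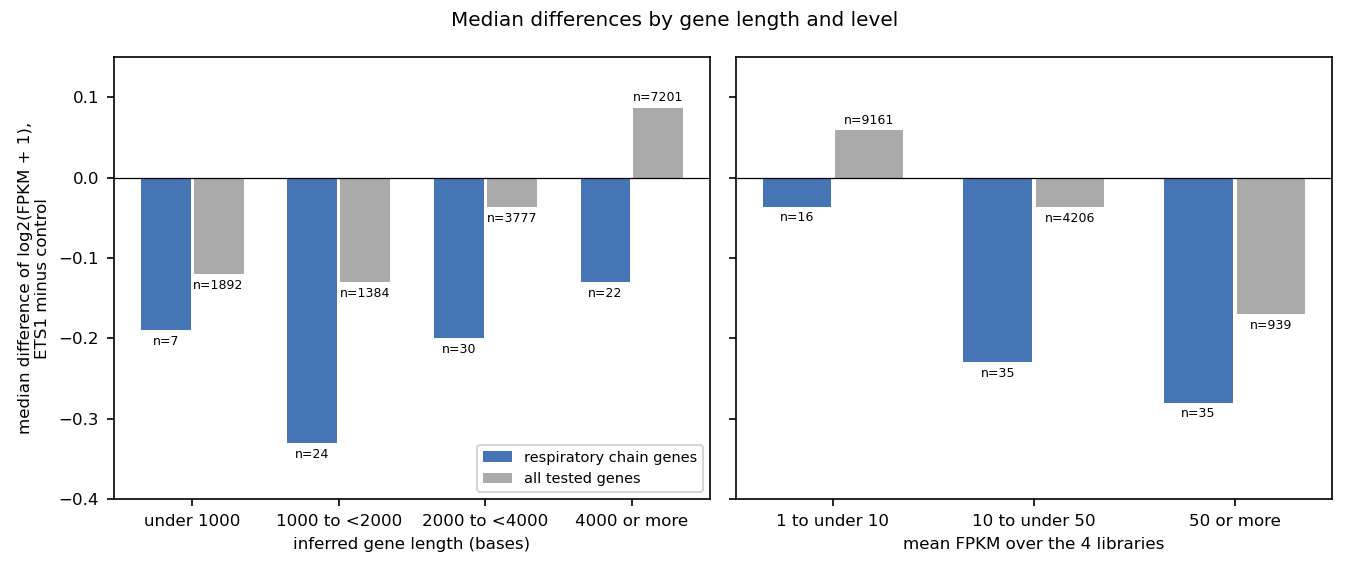
Median difference of log2(FPKM + 1), ETS1 minus control, of respiratory chain genes (blue) and of all tested genes (grey) in classes of inferred gene length (left) and of mean FPKM (right), with the number of genes at each bar. Blue bars lie below grey bars in each class, and all genes shift from above zero to below it from the lowest to the highest level.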

How the data were processed

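Total RNA of TE5 cells was sequenced in bulk, as 4 libraries. The authors' deposited table holds FPKM for 55764 gene names per library, per the file headers. Their comparison table of 16652 genes repeats these values and adds a mean normalized count per gene (a signal averaged over the libraries by the authors), the authors' log2 fold changes with standard errors, and the authors' p-values and adjusted p-values. The submitters' processing notes name HISAT2, HTSeq, DESeq2, hg38 and GRCh38, without versions or settings; which annotation and strand setting were used is not given in the sources used here.

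FPKM steps gave back read numbers and gene lengths for 16585 genes (99.7% of reads within 0.05 of a whole number). NDUFA7, NDUFB8, SDHD and UQCR11 were not among them. Because the tables hold FPKM and not raw counts, the comparison used limma 3.58.1 in R 4.3.3 on log2(FPKM + 1), with an intensity trend on the prior variance, keeping genes whose mean FPKM reached 1; Benjamini-Hochberg adjustment covered all 14306 genes. The procedure was tested on simulated data with known changes. All 4 libraries entered with group as the only term, 2 per group. Positions and exon overlap came from GENCODE 29, and older gene names were matched to current symbols for 18 of the 96 names.

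Named with values were, per complex, the 5 largest called differences and the smallest difference, SDHA to SDHD, the 3 genes highest in FPKM, all isoform pairs, all genes that rose and the nuclear core subunits of complex I, and the 3 largest of each other list; 1 gene that this rule names is not reported here. NDUFA7, NDUFA13, SDHAF2, USMG5, C14orf2, ATPIF1, CYCS, MT-CYB, NRF1, TFAM and PPARGC1A were added outside that rule after their values were seen. Genes and lists were chosen with earlier results of these data known. Alternatives were another pseudocount, other filters, other scalings, no intensity trend, a replicate block, leaving out each library, the authors' comparison, voom on recovered reads, and removal of length and chromosome trends; GC content and totals without mitochondrial reads were added after seeing the data.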

Additional observations from a re-analysis of the deposited data

How the results depend on the processing

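The count of genes that fell, 60 in the main comparison, ran from 44 to 64 over the 18 alternatives, 3 of which were chosen after seeing the data, and the median difference stayed below zero in each. Except for the authors' deposited table, the share of all genes that fell was not worked out for the alternatives, so their counts lack a background. The median over all tested genes lay between -0.0153 and 0.0487 in the alternatives. The median of -0.23 was -0.11 under quantile normalization, -0.25 in the authors' deposited table, -0.18 with the length trend removed, -0.26 with the chromosome median removed, -0.20 with length and GC trends removed, -0.21 with length, GC and chromosome removed and -0.19 with totals without mitochondrial transcripts. Leaving out 1 library gave medians from -0.25 to -0.20 and 49 to 59 genes that fell; without a filter on low values 49 fell. Under quantile normalization 5 genes rose in place of 2, all in complex I, and 4 genes of complex III fell in place of 7. Over all 86 genes, 65 differences were negative under quantile normalization, against 76 in the main comparison. Signs of single genes were followed for 47 named members only. Among those that passed the test in the main comparison or the alternative, the sign turned for ATP5B (0.014, adjusted p 0.569) and COX6B1 (0.0065, adjusted p 0.884) under quantile normalization. It also turned for NDUFS1, at -0.13 with the length trend removed (adjusted p 0.0259), -0.17 with length and GC (0.00988) and -0.19 with length, GC and chromosome (0.00729). The differences of SDHA, SDHC, SDHD, UQCRFS1, COX7A2L, ATP5S, NDUFA9 and NDUFS7, not called in the main comparison, also crossed zero under some alternative without passing the test there, from -0.10 for SDHA with the length trend removed to 0.11 for UQCRFS1 under quantile normalization. The cause was not tested.

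With the replicate number as a replicate block 56 genes fell and 2 rose, and none of the 47 named members changed its call. Samples with the same number did not deviate together (correlation of deviations across genes -0.0456), and the labels tie the numbers to no shared day or culture, so the numbers were not taken to pair the samples. With 2 libraries per group the spread has 2 residual degrees of freedom besides the prior, and depth differed between the groups.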
